A study of Homo sapiens with 20 samples.

Results

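Ampullary and extrahepatic bile duct cancer lines were compared, taken from a series of 20 established human biliary tract cancer lines. Every line labelled with the ampullary or the extrahepatic subtype was used, which gave 8 of the 20 lines. The 3 ampullary lines were SNU-478, SNU-869 and TGBC18TKB, all labelled as primary tumour cells. The 5 extrahepatic lines were EGI-1, SNU-1196, SNU-245 and TFK-1, labelled as primary, and Sk-ChA-1, labelled as metastatic from ascites. SNU-478, SNU-869, SNU-1196 and SNU-245 came from the repository KCLB, TGBC18TKB from RIKEN, EGI-1 and TFK-1 from DSMZ, and Sk-ChA-1 from Zurich. All lines were untreated and grown in the same medium, and poly(A) RNA was sequenced with a stranded kit, with 1 library per line. A line was therefore the replicate, and every spread below is a spread between lines.

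The ampulla of Vater is the chamber where the common bile duct and the pancreatic duct open into the duodenum. Tumours there can arise from biliary, pancreatic or intestinal type mucosa, and tumours of the extrahepatic duct arise from the lining of the duct just upstream. Cell lines hold tumour cells without the stroma and immune cells of the tissue, and after long culture each also carries the copy number changes and silenced genes of its own clone.

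Values are counts per M counts (CPM; M for mega) of the TMM-scaled library size, a scale for comparing one gene between lines and not genes with one another. Unless lines are named, values follow the order SNU-478, SNU-869, TGBC18TKB for ampullary lines and EGI-1, Sk-ChA-1, SNU-1196, SNU-245, TFK-1 for extrahepatic lines. Differences are log2, ampullary minus extrahepatic, with a standard error (SE). Total counts ran from 10.47 M in SNU-245 to 15.41 M in TFK-1, so a count of 0 allows up to 0.216 to 0.297 CPM by counting error alone. Sk-ChA-1 stood apart in epithelial genes. The epithelial score, the mean log2 CPM of 20 epithelial genes relative to the 8 lines, was −2.94 in Sk-ChA-1 and −0.09 to 1.02 in the other 7 lines. EPCAM, an epithelial adhesion gene, was at 795, 1167 and 849 CPM in ampullary lines and at 845, 127, 847, 2107 and 470 CPM in extrahepatic lines. In Sk-ChA-1 other epithelial genes were well expressed, with KRT19, a duct keratin, at 7031 CPM, the highest of the 8 lines, ELF3 at 760, KRT8 at 1410, the lowest of the 8, and CDH1 at 271 CPM. In that line, however, GRHL2, ESRP1, RAB25 and PRSS8 were at 0.3, 0.674, 0 and 0 CPM, while VIM, an intermediate filament gene of mesenchymal cells, was at 1634 CPM. VIM was also at 520 CPM in SNU-869. The 15 leukocyte markers summed to 31.1 to 59.6 CPM in ampullary and 15.2 to 78.0 CPM in extrahepatic lines. Their defining gene PTPRC was at 0 in 7 lines and at 0.0722 CPM in TFK-1. Of 17 pancreatic genes 4 passed the count filter. The acinar genes CPA1 and PTF1A were at 0 in all 8 lines, but SPINK1, a trypsin inhibitor gene, was at 408 CPM in SNU-478 and at most 5.64 CPM elsewhere, and the transcription factor NR5A2 was at 49.7 CPM in Sk-ChA-1 and 48.5 CPM in SNU-245.

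In whole profiles each ampullary line was closest to an extrahepatic line. Across 14742 genes, which are not independent replicates, the mean correlation of log2 CPM was 0.793 (SD 0.013) over the 3 ampullary pairs, 0.756 (SD 0.026) over the 10 extrahepatic pairs and 0.777 (SD 0.03) over the 15 pairs between sites. SNU-478 was closest to TFK-1 (0.828), SNU-869 to SNU-1196 (0.818) and TGBC18TKB to EGI-1 (0.816). In the other direction SNU-245 was the least like line for TGBC18TKB (0.724) and SNU-869 (0.746). It was also the least like line for the extrahepatic lines EGI-1 (0.746), Sk-ChA-1 (0.698) and TFK-1 (0.74). Principal components of the 2000 most variable genes held 24.0%, 18.6%, 16.6% and 13.4% of the variance. On the leading component SNU-245 (111.0) and Sk-ChA-1 (−88.7), both extrahepatic, marked the ends. On the third component all 3 ampullary lines (−50.7 to −28.0) lay below all 5 extrahepatic lines (−24.2 to 87.6), though TFK-1 was only just above TGBC18TKB.

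**Figure D1:**
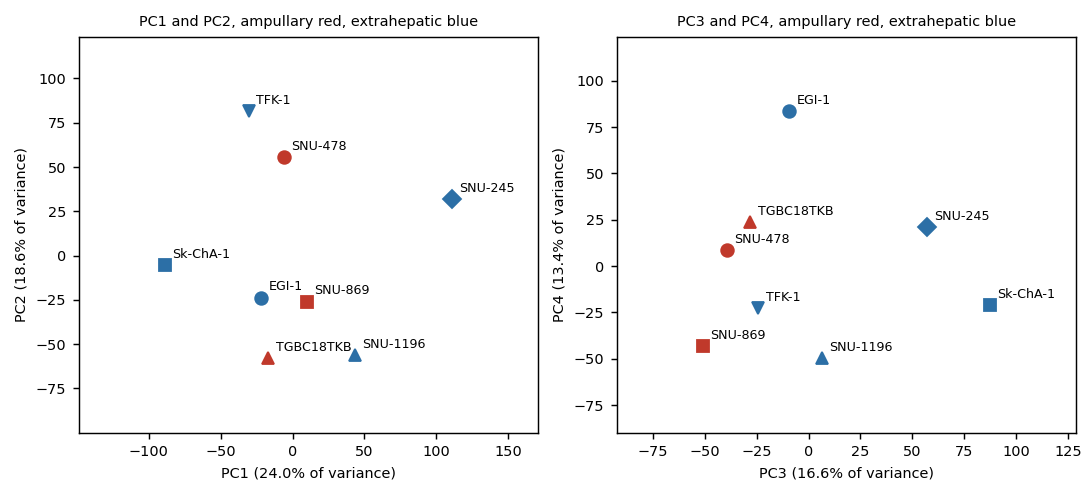
Scores of the 8 lines on principal components 1 to 4 of log2 CPM, each point 1 line, with the percent of variance on each axis. The leading component runs between Sk-ChA-1 and SNU-245, and on the third the ampullary lines (red) sit at −28.0 or below and the extrahepatic lines (blue) at −24.2 or above.

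No single gene passed the edgeR quasi-likelihood test after Benjamini-Hochberg adjustment over the 14742 genes tested. It called 0 genes (0.0%) higher and 0 genes (0.0%) lower in ampullary lines at an adjusted p under 0.05, and the smallest adjusted p was 0.0738. At an unadjusted p under 0.05 there were 279 genes (1.89%) higher and 313 (2.12%) lower. DESeq2, run as an alternative, called 25 genes (0.174%) higher and 32 (0.223%) lower of 14365, while limma-voom called 0 with 507 at an unadjusted p under 0.05. In counts simulated for this comparison over 14742 genes, the edgeR test recovered 0% of genes given a log2 change of 1, 4% at 2, 34% at 3 and 54% at 5, with 5 false calls among unchanged genes. The median log2 difference of all genes was −0.07. Genes were therefore also described by their values alone. In 23 genes (0.156%) every ampullary line was at least 2 times as high as every extrahepatic line, at 1 CPM or more, and in 6 genes (0.0407%) the reverse held. These are called separated below. Without the ratio, 189 genes (1.28%) were higher with no overlap and 221 (1.5%) lower.

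**Figure D2:**
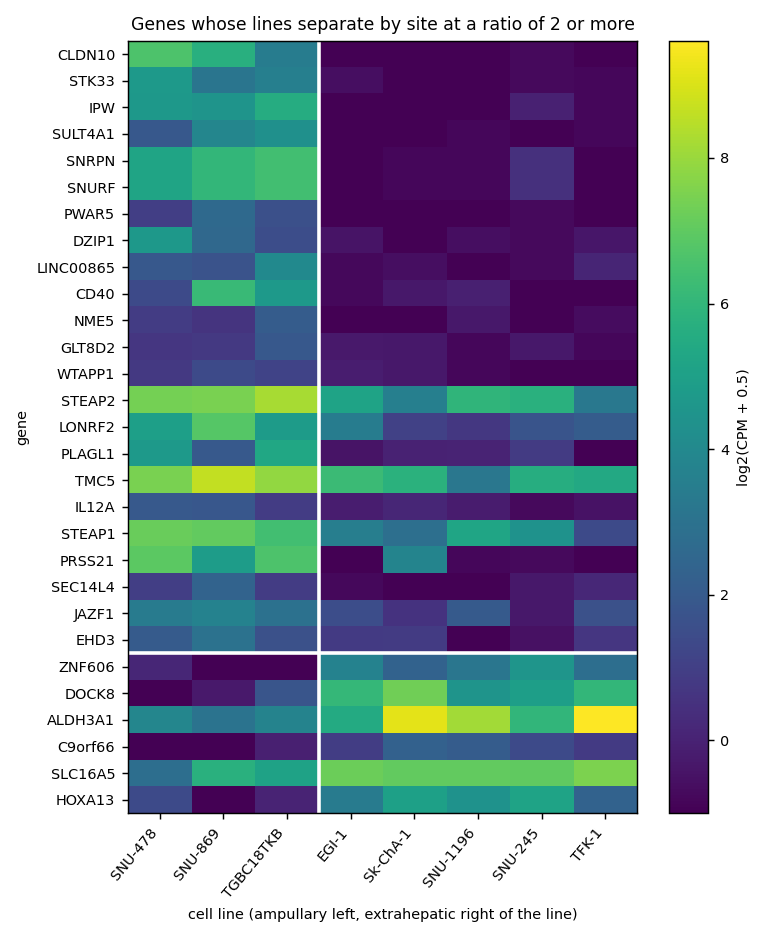
Colour gives log2(CPM + 0.5) of the 29 separated genes (rows) in the 8 lines (columns). In the upper 23 rows each ampullary line is at least 2 times as high as each extrahepatic line, and in the lower 6 rows the reverse holds.

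CLDN10 differed most by p value. It encodes claudin-10, a tight junction protein that forms ion-selective pores between epithelial cells. CLDN10 (NM_182848, chromosome 13) was at 101, 51.1 and 10.5 CPM in ampullary lines and at 0, 0, 0, 0.0989 and 0 CPM in extrahepatic lines. All 3 ampullary lines were high, and SNU-245 held the 1 extrahepatic count. The counts were 1972 against 1, a ratio of 3460 with a counting interval of 620 to 136751 (exact, 95%). The fitted log2 difference was 10.99 (SE 1.14, edgeR adjusted p = 0.0738), a value that depends on the prior count. In bulk RNA, expression by few cells of a line and a low level in all of them cannot be told apart. It passed with DESeq2 (adjusted p = 1.85e-14), with repository as a covariate (0.0174), with no count filter (0.0465) and without TGBC18TKB (0.0423), but was at 0.883 with limma-voom. DZIP1, a zinc finger gene of ciliary biology that neighbours CLDN10, was at 25, 5.58 and 2.34 CPM against 0.246, 0, 0.152, 0.0989 and 0.289 CPM. Both genes had the order SNU-478, SNU-869, TGBC18TKB from high to low. Whether reads are shared at the neighbouring ends was not tested.

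The other claudins had smaller differences. Of 16 claudins listed, 11 passed the count filter. At an unadjusted p under 0.05, 2 were higher (1.89% of all genes were) and 0 lower (2.12%). The second was CLDN12, at 100, 161 and 195 CPM against 78.1, 71.4, 42.0, 85.8 and 53.1 CPM (log2 difference 1.20, SE 0.34, edgeR adjusted p = 0.998). CLDN12 did not overlap between sites, but its lowest ampullary value lay close above SNU-245. The median over the 11 was 0.26, against −0.07 for all genes, and CLDN7, a claudin of most epithelia, was at 208 to 231 CPM in ampullary lines and 44.3 to 295 CPM in extrahepatic lines.

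A run of imprinted transcripts on chromosome 15q11 was on in all 3 ampullary lines and off or nearly so in all 5 extrahepatic lines. These genes are normally read from the paternal copy only, from a start region around SNURF and SNRPN whose methylation marks the silent maternal copy. SNRPN, which encodes a protein of spliceosomal particles, was at 35.8, 64.9 and 84.5 CPM against 0, 0.0749, 0.0758, 0.89 and 0 CPM. SNURF, the upstream reading frame of the same transcript, held identical counts, so the 2 entries are 1 measurement. The counts were 2190 against 11, a ratio of 349 (exact 95% counting interval 195 to 701). The log2 difference was 8.24 (SE 1.25, edgeR adjusted p = 0.342). Without SNU-245, the extrahepatic line with most of those counts, SNRPN, SNURF and IPW passed the edgeR test (SNRPN adjusted p = 0.011).

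The noncoding genes downstream had the same pattern. IPW was at 25, 22.3 and 47.4 CPM against 0, 0, 0, 0.495 and 0.0722 CPM (log2 difference 8.1, SE 1.29, edgeR adjusted p = 0.379). PWAR5 was at 1.43, 5.74 and 2.52 CPM against 0, 0, 0, 0.0989 and 0 CPM. PWARSN, named after its values were seen, was at 1.01, 1.65 and 0.81 CPM and at 0 in all 5 extrahepatic lines. Its counts were 42 against 0, with an exact 95% lower limit of the ratio of 19.1. Against a floor of 3 counts over the extrahepatic group the ratio was 24.6. These transcripts may be parts of 1 long precursor, so they are not separate events. The genes on either side, also chosen after their values were seen, did not share the pattern. UBE3A, a ubiquitin ligase gene further along, was at 80.9, 119 and 150 CPM against 110, 70.2, 61.4, 85.0 and 229 CPM. NDN, imprinted and upstream, was at 13.7 CPM in SNU-869 and at 0 in the other 7 lines. MKRN3, the furthest upstream, was at 13.1 CPM in SNU-869, 8.2 in EGI-1 and 10.9 in SNU-245 and at 0 in the rest.

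**Figure D3:**
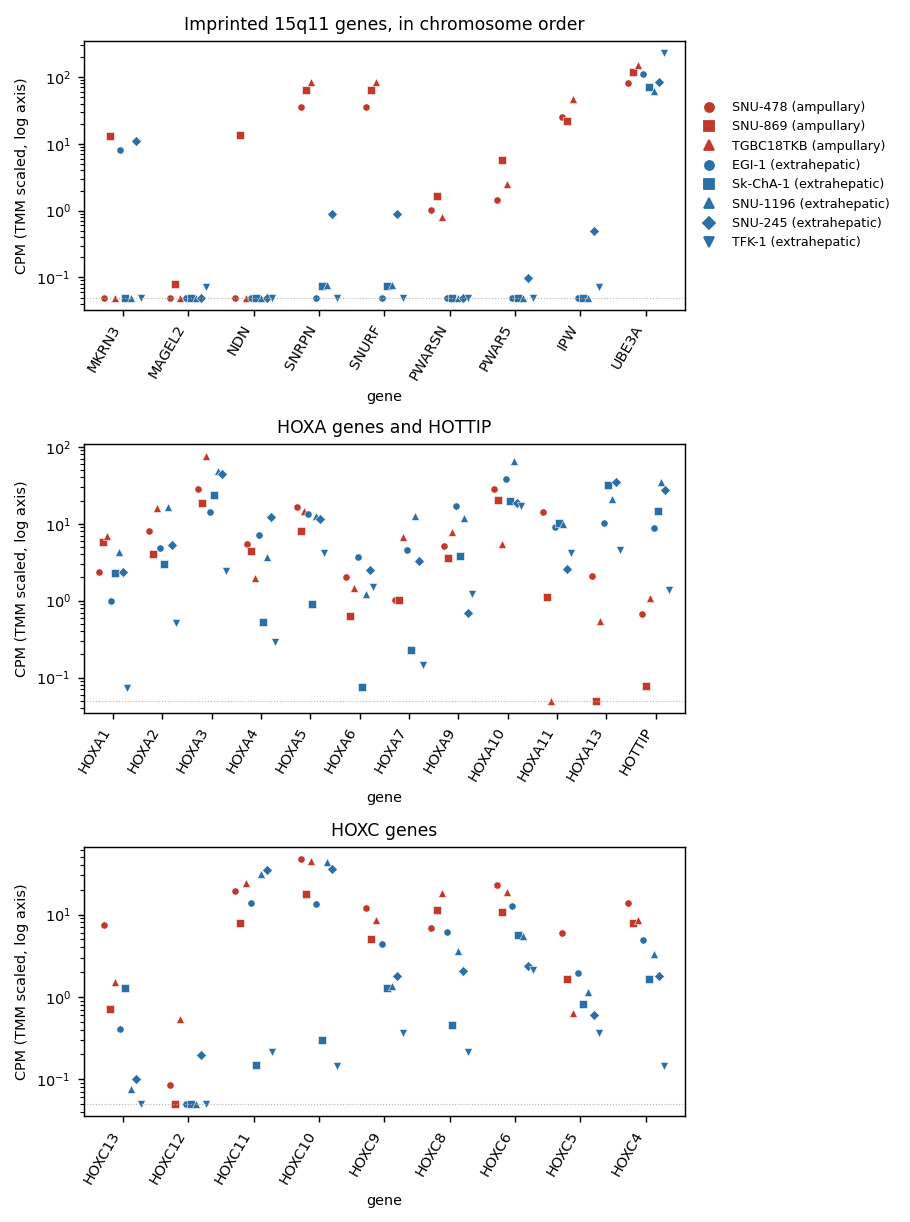
Each point is the CPM of 1 line (log axis, ampullary red, extrahepatic blue) for genes of 15q11, HOXA and HOXC in cluster order, and values under 0.05 CPM are drawn on the dotted line. SNRPN, SNURF, PWARSN, PWAR5 and IPW split by site while UBE3A does not, HOXA13 and HOTTIP are lower in ampullary lines, and HOXC4, HOXC8 and HOXC9 are higher.

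Start regions are shown for 4 of the separated genes, 2 in each direction. CG pairs are the usual carriers of DNA methylation, which was not measured here. Each sequence is the 250 bases before a RefSeq start on the strand of the gene (GRCh38.p14), with every CG in capitals. Over 35116 such windows the median number of CG was 11. The SNURF window (chr15:24954737-24954986, plus strand) holds 12, and 48.5% of windows hold as many or more. CLDN10 has 2 listed starts, and the counts per gene do not say which was used. Its upstream window (chr13:95433505-95433754, plus strand) holds 9 CG (54.1% of windows hold as many or more) and its downstream window (chr13:95552470-95552719, plus strand) holds 29 (14.1%). The windows of ZNF606 (chr19:58002821-58003070, minus strand; 27 CG, 17.7%) and HOXA13 (chr7:27200092-27200341, minus strand; 40 CG, 2.16%), lower in ampullary lines, are given for comparison. The 4 genes thus span ordinary to very high CG content.
SNURF: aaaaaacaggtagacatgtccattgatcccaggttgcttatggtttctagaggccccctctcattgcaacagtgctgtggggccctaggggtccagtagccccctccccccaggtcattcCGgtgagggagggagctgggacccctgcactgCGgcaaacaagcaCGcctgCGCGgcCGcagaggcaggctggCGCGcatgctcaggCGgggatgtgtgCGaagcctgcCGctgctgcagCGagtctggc
CLDN10 upstream start: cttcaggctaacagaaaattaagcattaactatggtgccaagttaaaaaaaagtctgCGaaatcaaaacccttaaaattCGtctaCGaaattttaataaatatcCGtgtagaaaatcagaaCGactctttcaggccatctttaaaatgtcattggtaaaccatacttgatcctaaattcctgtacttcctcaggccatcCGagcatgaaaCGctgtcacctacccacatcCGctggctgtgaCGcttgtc
CLDN10 downstream start: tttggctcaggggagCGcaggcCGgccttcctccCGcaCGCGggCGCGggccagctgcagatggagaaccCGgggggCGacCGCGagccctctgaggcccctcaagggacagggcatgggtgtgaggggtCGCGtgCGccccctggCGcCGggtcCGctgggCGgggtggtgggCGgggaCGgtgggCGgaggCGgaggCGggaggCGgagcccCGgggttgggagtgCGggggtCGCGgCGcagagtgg
ZNF606: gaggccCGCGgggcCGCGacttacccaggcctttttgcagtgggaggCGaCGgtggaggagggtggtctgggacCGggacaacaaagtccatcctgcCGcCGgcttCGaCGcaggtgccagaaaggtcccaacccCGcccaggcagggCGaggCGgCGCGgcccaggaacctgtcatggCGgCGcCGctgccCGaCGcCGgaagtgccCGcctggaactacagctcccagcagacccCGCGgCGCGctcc
HOXA13: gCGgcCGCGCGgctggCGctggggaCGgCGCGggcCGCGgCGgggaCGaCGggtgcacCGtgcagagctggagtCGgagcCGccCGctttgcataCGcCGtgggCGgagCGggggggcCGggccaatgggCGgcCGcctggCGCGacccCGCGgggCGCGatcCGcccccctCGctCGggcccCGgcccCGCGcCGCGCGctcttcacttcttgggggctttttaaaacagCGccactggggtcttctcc

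SULT4A1 and STK33, next to CLDN10 by p on the higher side, were likewise near 0 in extrahepatic lines. So were CD40 and LINC00865, named for their separation. SULT4A1, a sulfotransferase gene best known from brain, was at 3.28, 14.2 and 19.4 CPM against 0, 0, 0.0758, 0 and 0.0722 CPM, that is 436 counts against 2 (ratio 383, exact 95% counting interval 105 to 3169; edgeR adjusted p = 0.229). STK33, a serine/threonine kinase gene, was at 26.6, 8.26 and 11.5 CPM against 0.164, 0, 0, 0.0989 and 0.0722 CPM. Its log2 difference was 7.68 (SE 1.06, edgeR adjusted p = 0.229), and DESeq2 gave an adjusted p of 4.46e-10. CD40, a receptor of the TNF family through which T cells activate antigen presenting cells, was at 2.1, 72.3 and 25.7 CPM against 0.082, 0.3, 0.455, 0 and 0 CPM. CD40 was high in SNU-869 and TGBC18TKB, and SNU-478 lay nearer to the extrahepatic lines (edgeR adjusted p = 0.859; DESeq2 adjusted p = 2.07e-06). The noncoding gene LINC00865 was at 3.28, 2.75 and 15.9 CPM against 0.082, 0.15, 0, 0.0989 and 0.577 CPM.

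Of the other genes separated on the higher side, STEAP1, STEAP2, TMC5 and LONRF2 were above 1 CPM in every line. These and the next 2 were named after their values were seen. STEAP1 and STEAP2 are neighbours on chromosome 7 and encode membrane proteins of the STEAP family. STEAP1 was at 147, 132 and 83.7 CPM against 11.1, 6.74, 37.2, 20.8 and 2.09 CPM (log2 difference 2.96, SE 0.76), and STEAP2 at 166, 178 and 298 CPM against 35.4, 11.6, 61.5, 52.5 and 8.95 CPM (2.65, SE 0.64). Both were lowest in TFK-1 and, among extrahepatic lines, highest in SNU-1196. TMC5, a transmembrane channel-like gene, was at 178, 401 and 234 CPM against 75.7, 53.8, 8.79, 48.6 and 41.6 CPM (2.57, SE 0.58). LONRF2 was at 31.5, 112 and 27.7 CPM against 10.5, 1.57, 1.14, 2.87 and 3.75 CPM (3.85, SE 0.81). PRSS21, a membrane serine protease gene best known from testis, was at 122, 28.9 and 101 CPM and at 13.3 CPM in Sk-ChA-1, with at most 0.0989 CPM in the other 4 extrahepatic lines. PLAGL1, an imprinted zinc finger gene on chromosome 6, was at 25.8, 3.38 and 39.4 CPM against 0.246, 0.524, 0.531, 1.29 and 0 CPM.

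Among the 6 genes separated in the other direction, DOCK8 and ZNF606 were near 0 in ampullary lines. DOCK8, which encodes a guanine nucleotide exchange factor of leukocyte migration, was at 0, 0.315 and 2.97 CPM against 66, 158, 21.9, 30.8 and 64.4 CPM. Its log2 difference was −5.96 (SE 1.44, edgeR adjusted p = 0.998; DESeq2 adjusted p = 4.43e-05). C9orf66, which overlaps the start of DOCK8 on the opposite strand and may share reads with it, was at 0, 0 and 0.45 CPM against 1.39, 4.34, 3.79, 2.08 and 1.23 CPM. ZNF606, a zinc finger gene on chromosome 19, was at 0.588, 0 and 0 CPM against 12.6, 4.49, 8.49, 22.9 and 6.64 CPM (−5.74, SE 1.48). SLC16A5, a gene of the monocarboxylate transporter family, was at 6.72, 52.1 and 34.3 CPM against a narrow 128 to 182 CPM in extrahepatic lines (−2.23, SE 0.59).

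The genes of smallest p on the lower side were otherwise expressed at both sites. ILRUN, a regulator of antiviral and inflammatory transcription, was at 79.2, 77.8 and 57.8 CPM against 168, 164, 158, 161 and 151 CPM. Its log2 difference was −1.16 (SE 0.27, edgeR adjusted p = 0.998; DESeq2 adjusted p = 0.00318), and the extrahepatic lines agreed within an SD of 6.32 around a mean of 160. SLC25A29, a mitochondrial carrier of basic amino acids, was at 35.9 ± 9.03 CPM (SD, n = 3) against 111 ± 31.6 CPM (n = 5). ARHGAP33, a gene of the sorting nexin family, was at 12.5 ± 2.66 CPM against 48.0 ± 20.4 CPM. None of the lines of one site overlapped the other in these 3 genes, as in 221 genes (1.5%) of all tested. Each had an edgeR adjusted p of 0.998 and a DESeq2 adjusted p of 0.02 or less. The 3 were picked by p in these same lines, so neither the lack of overlap nor the DESeq2 values are separate support.

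ALDH3A1 had the smallest p of the NRF2 target genes. The transcription factor NRF2 switches on detoxifying and glutathione genes when its inhibitor KEAP1 is disabled. ALDH3A1, which clears aldehydes, was at 14.0, 7.63 and 12.9 CPM against 44.6, 573, 279, 62.8 and 781 CPM. The log2 difference was −4.92 (SE 1.12, edgeR adjusted p = 0.998; DESeq2 adjusted p = 2.18e-05). Its neighbour ALDH3A2, not on the NRF2 list and a fatty aldehyde dehydrogenase gene, was at 101, 65.1 and 55.6 CPM against 146, 468, 236, 316 and 312 CPM (−2.0, SE 0.46). Of 20 NRF2 target genes in the fit, 18 had a negative difference (54.9% of all genes did), and the median was −1.56. At an unadjusted p under 0.05, 3 were lower (2.12% of all genes were) and 0 higher (1.89%). HMOX1, the heme oxygenase gene, was at 5.67 to 8.65 CPM in ampullary lines and 11.4 to 75.2 CPM in extrahepatic lines, with no overlap. GCLC, which makes the first step of glutathione synthesis, was at 59.3, 102 and 41.0 CPM against 62.4, 230, 141, 218 and 120 CPM. TFK-1 held the highest value of 18 of the 20 genes, and of 15.2% of all genes tested, for example AKR1C1 at 3423 CPM and NQO1 at 2761 CPM. Without TFK-1 the list median was −0.63, and among KCLB lines alone it was −0.34.

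Interferon stimulated genes were also mostly lower, with the same leading line. Of 28 genes, 26 had a negative difference (54.9% of all genes did), and the median was −1.28. At an unadjusted p under 0.05, 2 were lower (2.12% of all genes were) and 0 higher (1.89%). IRF9, a subunit of the factor that interferon activates, was at 73.5, 86.6 and 47.2 CPM against 107, 186, 180, 182 and 238 CPM, with no overlap (log2 difference −1.37, SE 0.37, edgeR adjusted p = 0.998). EPSTI1, another interferon induced gene, was at 9.36 to 12.9 CPM against 33.1, 64.0, 10.8, 45.0 and 38.1 CPM and overlapped in SNU-1196. TFK-1 held the highest value of 21 of the 28 genes (15.2% of all genes). IFIT1, an RNA binding effector, was at 788 CPM in TFK-1 and at 19.3 to 227 CPM in the other 7 lines. Without TFK-1 the median was −0.56, and among the 4 KCLB lines its sign turned (0.81).

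RNA of MHC class II genes was highest in 1 ampullary line. Class II molecules show peptides to helper T cells and are switched on by the coactivator CIITA. SNU-869 held CIITA at 27.4 CPM and the other 7 lines at 0 to 0.985 CPM. HLA-DRA, the alpha chain of the DR pair, was at 1.76, 260 and 1.71 CPM against 1.23, 0.15, 0.0758, 0.0989 and 0.361 CPM. Its ampullary values did not overlap the extrahepatic ones, but in SNU-478 and TGBC18TKB they were close to EGI-1. CD74, the invariant chain that escorts class II, was at 123, 1554 and 162 CPM against 125, 17.1, 35.6, 0 and 2.38 CPM. HLA-DMA, which loads peptides, was at 29.3, 61.9 and 9.27 CPM against 14.9, 3.52, 7.35, 7.62 and 6.64 CPM. HLA-DRB1, a variable gene with close copies, was at 60.4 CPM in SNU-869 and 35.6 CPM in SNU-245. Of 11 class II genes 6 passed the count filter. At an unadjusted p under 0.05, 5 of these were higher (1.89% of all genes were), and none passed after adjustment (edgeR). Their median log2 difference was 4.29, and 1.66 without SNU-869.

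PIGR was high in 2 ampullary lines and most chemokine genes in 1, while the mucosal defence genes as a list were mixed. PIGR, which moves IgA through epithelial cells to the surface, was at 646, 542 and 8.19 CPM against 3.36, 0.449, 0.152, 0.0989 and 13.9 CPM. SNU-478 and SNU-869 were far above every extrahepatic line, while TGBC18TKB lay below TFK-1. The log2 difference was 6.78 (SE 1.78, edgeR adjusted p = 0.998; DESeq2 adjusted p = 0.000959). Of 21 mucosal defence genes 14 passed the count filter, and the median was −0.52. At an unadjusted p under 0.05, 2 were higher (1.89% of all genes were) and 0 lower (2.12%). Of the 14, 9 had a negative difference, and Sk-ChA-1 held the highest value of 5 and SNU-245 of 3. LYZ (lysozyme) was at 3059 CPM in SNU-245 and 1123 CPM in SNU-869. REG4, a secreted lectin gene that did not pass the filter, was at 2332 CPM in SNU-245. The second higher gene, CXCL17, a mucosal chemokine, was at 190 CPM in SNU-478 and at 0.303 to 6.64 CPM in the other 7 lines, and without SNU-478 its difference turned to −1.77. DMBT1, a mucosal scavenger receptor gene, was at 1974 CPM in Sk-ChA-1 and at 0.0989 to 16.7 CPM elsewhere. SNU-478 held the highest value of 8 of 11 chemokine genes, and of 10.5% of all genes. CCL20, which draws lymphocytes to mucosa, was at 39.4 CPM there and at 0 to 1.52 CPM in the other lines, and CXCL2, a neutrophil chemokine, at 84.8 CPM against 1.42 to 11.6 CPM. The chemokine median was 1.95, and −0.33 without SNU-478. With all 8 lines, 5 of 11 chemokine genes were higher at an unadjusted p under 0.05 (1.89% of all genes were).

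**Figure D4:**
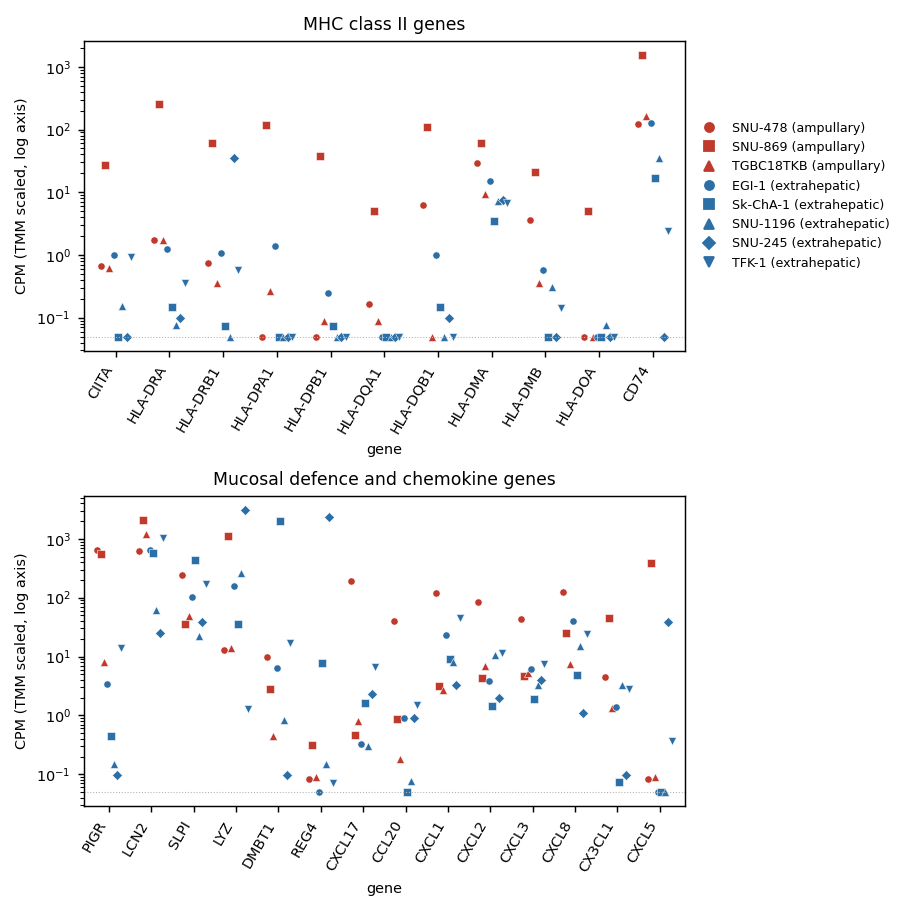
Each point is the CPM of 1 line (log axis, ampullary red, extrahepatic blue) for 11 MHC class II genes and 14 mucosal defence and chemokine genes, and values under 0.05 CPM are drawn on the dotted line. SNU-869 (red square) leads the class II genes, SNU-478 (red circle) CXCL17 and CCL20, and PIGR is highest in SNU-478 and SNU-869.

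Intestinal genes were highest in an extrahepatic line. Of 23 intestinal genes 13 passed the count filter, and 12 of these had a negative difference (54.9% of all genes did). At an unadjusted p under 0.05, 1 was lower (2.12% of all genes were) and 0 higher (1.89%). SNU-245 held the highest value of 10 of the 13 (14.7% of all genes). LGALS4, a galectin of gut epithelium, reached 1242 CPM in that line, against 0.236 to 3.26 CPM in the other 7. CDX2, the intestinal homeobox factor, was at 5.13, 6.13 and 7.29 CPM against 4.27, 2.4, 42.0, 133 and 5.34 CPM. CDH17, an intestinal cadherin, reached 1528 CPM in SNU-245, 43.3 in Sk-ChA-1 and at most 4.37 CPM in the other lines. The list median was −1.76, and −0.32 without SNU-245. SOX2, a foregut and stem cell factor, was at 27.1 and 30.6 CPM in SNU-478 and SNU-869 and at 0 in TGBC18TKB, and at 1.59 CPM in TFK-1 and 0 in the other 4 extrahepatic lines. ANXA10, a gene of gastric mucosa, was at 177 CPM in Sk-ChA-1 and 88.4 CPM in SNU-245, and at most 2.02 CPM in the other 6 lines. KRT7, a keratin of bile duct lining, was at 1203, 4.48 and 2268 CPM against 24.3, 643, 810, 557 and 1421 CPM, so each site held 1 line with little of it.

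HOX genes, which record position along the body axis, differed in 2 clusters and in opposite directions. HOXA13, the most posterior gene of its cluster, was at 2.1, 0 and 0.54 CPM against 10.2, 32.2, 20.8, 34.8 and 4.62 CPM. Its log2 difference was −4.53 (SE 1.36, edgeR adjusted p = 0.998; DESeq2 adjusted p = 0.00772). HOTTIP, the noncoding neighbour that starts beside it on the other strand, was at 0.672, 0.0786 and 1.08 CPM against 8.7, 14.8, 34.6, 27.5 and 1.37 CPM. HOXA10, in the same cluster, was at 5.4 to 28.3 CPM against 17.0 to 65.9 CPM and overlapped. In the HOXC cluster the lean was upward. HOXC9 was at 12, 5.11 and 8.64 CPM against 4.35, 1.27, 1.36, 1.78 and 0.361 CPM, HOXC8 at 6.81, 11.2 and 18.2 CPM against 6.15, 0.449, 3.64, 2.08 and 0.216 CPM, and HOXC4 at 13.7, 7.79 and 8.64 CPM against 4.92, 1.65, 3.34, 1.78 and 0.144 CPM. None of the 3 overlapped, and EGI-1 was the extrahepatic line closest to the ampullary ones in each, narrowly so in HOXC8. Without overlap, 3 of 28 HOX genes in the fit were higher (1.28% of all genes were) and 1 lower (1.5%). HOXC10 and HOXC11 overlapped widely. Of 28 HOX genes in the fit 5 were higher (1.89% of all genes were) and 1 lower (2.12%) at an unadjusted p under 0.05. The median was 0.61, and neighbouring HOX genes are not independent of each other.

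Of 22 mesenchymal genes 13 were in the fit, with a median of 0.01. At an unadjusted p under 0.05, 1 was higher (1.89% of all genes were) and 1 lower (2.12%). CALD1, which binds actin and restrains contraction, was at 178, 10.2 and 58.0 CPM against 8.37, 0.3, 0.985, 0.0989 and 0.938 CPM (log2 difference 5.26, SE 1.38, edgeR adjusted p = 0.998; DESeq2 adjusted p = 0.00673). S100A4, a calcium binding protein of motile cells, was at 45.2, 29 and 15.3 CPM against 1078, 1681, 1494, 1105 and 13.1 CPM. TFK-1 was as low as the ampullary lines, and without it the edgeR adjusted p of S100A4 was 0.0781, against 0.998 with it (DESeq2 adjusted p = 0.000112 with it). The 20 epithelial genes had a median of −0.28 with 0 at an unadjusted p under 0.05 in either direction.

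Several cancer genes were extreme in single lines. CDKN2A, the cell cycle inhibitor gene, was at 0, 31.9 and 239 CPM against 0, 0.3, 0.0758, 2.37 and 0 CPM. Its counts were 3065 against 29, mostly from TGBC18TKB, and SNU-478 had none (log2 difference 7.40, SE 2.16, edgeR adjusted p = 0.998). RB1, which restrains entry into S phase, was at 41.3, 53.6 and 33.5 CPM against 63.3, 172, 67.9, 79.9 and 121 CPM, with no overlap (−1.24, SE 0.42). CCND3, a cyclin gene, was at 1386 CPM in SNU-1196 and 527 CPM in TFK-1 and at most 91.1 CPM elsewhere. ERBB2, a receptor kinase gene, was at 1441 CPM in TGBC18TKB and at 231 to 607 CPM in the other 7 lines. FGFR3, a growth factor receptor gene, was at 51.7, 19 and 3.78 CPM against 352, 12, 29.4, 86.8 and 113 CPM. Of 33 tumour suppressor and cell cycle control genes 1 was higher (1.89% of all genes were) and 1 lower (2.12%) at an unadjusted p under 0.05. Of 18 receptor kinases in the fit 0 passed that threshold in either direction.

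**Figure D5:**
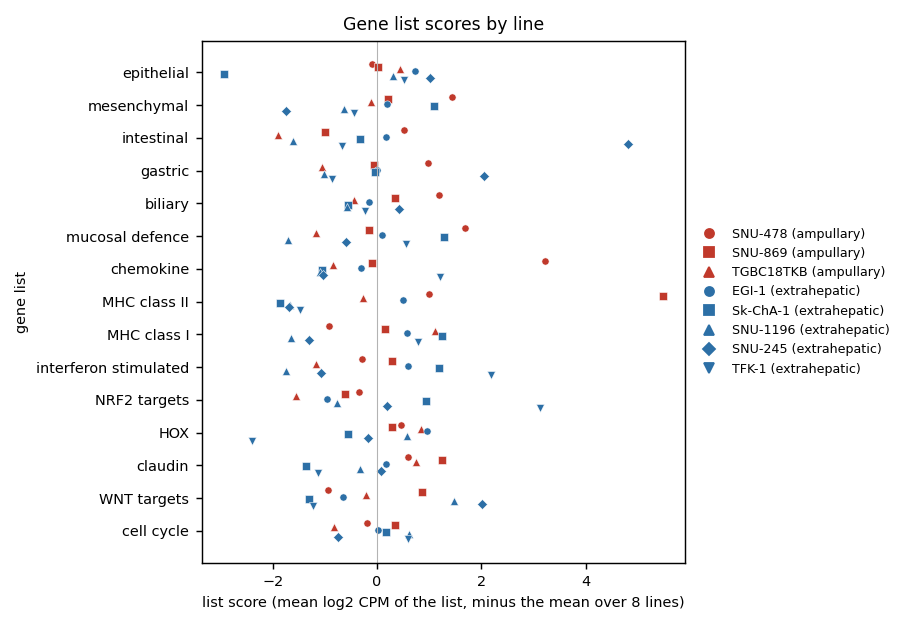
Each point is the score of 1 line for 1 gene list (mean log2 CPM of the list relative to the 8 lines; ampullary red, extrahepatic blue). The line farthest from 0 is SNU-869 for MHC class II, SNU-245 (4.82) for intestinal genes, TFK-1 for NRF2 targets and Sk-ChA-1 (−2.94) for epithelial genes.

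In the plot of list scores by line, only the claudin list shows no overlap between sites. For the interferon list the scores were −1.17 to 0.28 in ampullary lines and −1.74 to 2.19 in extrahepatic lines. For the claudin list they were 0.6 to 1.24 against −1.37 to 0.17. Its 11 genes include CLDN10, the gene of smallest p in these same lines. The claudin scores are therefore not separate from the CLDN10 difference, and scores without CLDN10 were not computed. The cell cycle list ran from −0.83 to 0.35 against −0.75 to 0.62. The 4 KCLB lines comprise 2 of each site, so repository does not coincide with site, but RIKEN supplied ampullary and DSMZ and Zurich extrahepatic lines only.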

How the data were processed

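Poly(A) RNA was measured in 8 lines, 1 library each. The authors deposited raw counts of reads per gene, not normalized. Per the submitters' processing notes Trimmomatic, the aligner TopHat2 (2.0.8), Picard (1.69) and the counter featureCounts were used, with build hg19. Strand setting and annotation release: not given in the sources used here. Therefore overlapping genes may share reads. Of 24222 RefSeq identifiers, 23512 took symbols from the RefSeq table and 355 from GENCODE, and 355 with none (0.484% of counts) kept identifiers. Counts were fitted with edgeR 4.0.16 (TMM scaling, the filterByExpr count filter and a robust two-sided quasi-likelihood F test) in R 4.3.3. Alternatives were DESeq2 1.42.0, limma-voom (limma 3.58.1), RLE scaling, other filters, non-robust dispersion, repository as a covariate, KCLB lines only, a fit on 19 lines and each line left out. Named genes are the 6 of smallest p per direction, the 10 most separated per direction, and, per list described, the 2 to 4 lowest p, with defining members. Exceptions are stated, and 1 gene that met the rule is not reported here. The lines and gene lists were chosen with earlier results of these data known. P-values set the difference between sites against the spread between lines.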

Additional observations from a re-analysis of the deposited data

Results flagged for a closer look

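In groups of 5 extrahepatic lines, single lines far from the other 4 (Dixon's ratio above 0.71) were checked in 57 genes and list scores. Chance gives about 1 such case in 20 where values spread normally, which does not hold for counts near 0. SNU-245 stood above the other 4 for CLDN10 (0.0989 CPM, 1 count), SNRPN and SNURF (0.89 CPM each, 1 measurement), IPW (0.495 CPM) and PWAR5 (0.0989 CPM, 1 count), all below every ampullary line. For CLDN10 and PWAR5 the other 4 lines were at 0, so any single count gives a ratio of 1.0. Those 2 flags do not tell SNU-245 from the other lines. SNU-245 was also high in the intestinal score (4.82) and low in the fibroblast marker score (−2.26, over 3 genes in the fit). Sk-ChA-1 was low in the epithelial score (−2.94), TFK-1 low in the score of p53 targets (−0.83), and EGI-1 high in the MHC class II score (0.49).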

How the results depend on the processing

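The edgeR count of higher genes, 0 in the 8 lines, was 25 with DESeq2, 1 (CLDN10) with no count filter, with repository as a covariate or at an adjusted p under 0.1, and 0 to 3 with 1 line left out (CLDN10 without TGBC18TKB; SNRPN, SNURF and IPW without SNU-245). The count of lower genes, 0, was 32 with DESeq2. Separated genes, 23 higher and 6 lower, were 189 and 221 with any gap, 10 and 2 at a ratio of 4, 11 and 3 at 5 CPM, and 464 and 411 among KCLB lines only, where fewer lines leave more genes separated by construction. Leaving out 1 line can, by construction too, only keep or add separated genes. It gave 28 to 57 higher and 8 to 38 lower. Each count was over 1.5 times the main count except without SNU-245 and, for higher genes, without Sk-ChA-1 (also the fit on primary lines). With a prior count of 0.5 all mean r values were lower than in the main setting. They were 0.768 within ampullary lines (main 0.793), 0.731 within extrahepatic lines (0.756) and 0.752 between sites (0.777). Only the ampullary change was larger than the SD of its pairs. The variance on the leading component was 24.7% with 500 genes, against 24.0%. The cause of these changes was not tested. Of 64 named genes, 53 kept the sign of their log2 difference in every alternative. It turned, with no value past the threshold on either side, for COL5A1 (−0.53), LOX (−0.8), CXCL17 (−1.77), CEACAM7 (−6.48) and CCL20 (−0.33) without SNU-478, CTSE (1.84) without SNU-245 and ERBB2 (−0.51) without TGBC18TKB. The far end of their range with 1 line left out was 4.34, 2.79, 5.79, 4.18, 4.89, −4.26 and 1.23 in that order. Among KCLB lines only it turned for CMPK2 (0.02), IFIT1 (0.86), DMBT1 (3.71; 1.81 with repository as a covariate), CLDN9 (−0.42) and ERBB2 (−0.41), and with limma-voom for CEACAM7 (−0.15) and CTSE (0.54). The cause was not tested. No paired analysis was possible because each library is a different line and the labels pair no line with another. With 3 against 5 lines and 1 library each, depth limits genes under about 0.3 CPM, and the spread between lines limits the rest.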
